A study of Mus musculus with 4 samples.

Results

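The connexin genes Gja1, Gja4, Gja5, Gjb2, Gjb5 and Gjc1 were compared between d4 and d2 of cardiogenic differentiation in mESCs of the established line E14-Tg2a. They were taken from the deposited table of read counts by their Ensembl gene IDs, which matched 6 of the 55487 gene IDs in the table. Total RNA was sequenced in 2 libraries per day. At d4 the cultures had passed through 48 h without serum and, after dissociation, through 40 h as new aggregates with added VEGF at 5 ng/ml, BMP4 at 0.5 ng/ml and Activin A at 8 ng/ml. At d2 they had completed the first 48 h only. No genetic change separated the days, and all cells came from the same line without feeder cells. Day, growth factors and reaggregation changed together and cannot be told apart. The paper's methods describe the replicates of a day as independent differentiation experiments.

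Connexins are membrane proteins that assemble into hexameric hemichannels. A hemichannel docks with one on a neighbouring cell to form a gap junction, through which ions and small metabolites pass directly between cells. Gja1 is the most widely used family member and a main gap junction gene of mouse embryonic stem cells. Gja4 and Gja5 are the connexins of arterial endothelium, Gjc1 serves the earliest heart tube and vascular smooth muscle, and Gjb2 and Gjb5 are connexins of epithelia that the mouse placenta also uses.

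At d4 the Gja4 and Gjb2 genes were higher than at d2, by 84.3-fold and by a ratio of 37.6 in normalized counts, and Gja1 was lower, at 0.302 times its d2 level. Gjc1 and Gjb5 stood above d2 in both d4 libraries, by fitted folds of 1.62 and 2.64, but did not pass the threshold. Gja5 had at most 3 counts in any library. The test was the quasi-likelihood test of edgeR, two-sided, at a Benjamini-Hochberg adjusted p under 0.01 over the 14932 genes that passed a filter at 0.5 CPM, which are counts scaled to a common library size. Of the 6 connexins, 5 passed the filter and 3 of these passed the test, beside 24.3% of all genes tested. Of the 5, 2 were higher at d4, beside 12.9% of all genes, and 1 was lower, beside 11.3%. Gja4 and Gjb2, at 0.193 and 0.117 CPM on average at d2, passed the filter only through d4, the day in which they are high. With 5 genes these shares are given as counts only.

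**Figure D1:**
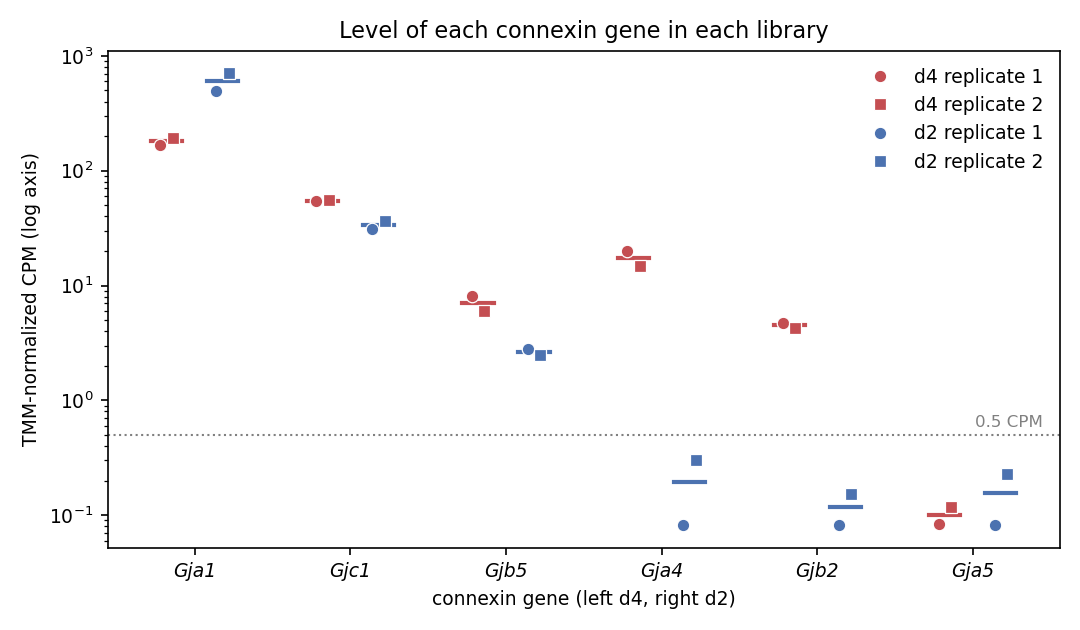
Level of the 6 connexin genes in TMM-normalized CPM on a log axis, with 1 point per library (circle, replicate 1; square, replicate 2), a bar at the mean of each day, d4 in red on the left and d2 in blue on the right. Gja4 and Gjb2 lie above the dotted line at 0.5 CPM at d4 and below it at d2, and Gja5 stays under the line in all 4 libraries.

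The libraries held 11397439 and 16851485 counts at d4 and 12068584 and 14038796 at d2. A count of 3 was worth 0.176 to 0.254 CPM, so levels near that value carry little information, and all intervals below cover counting error only. Across genes, log2 CPM correlated at 0.977 within d4, at 0.983 within d2 and at 0.775 to 0.803 between days. Among 14 tested markers of endothelium, d4 was higher for 11, and 3 did not pass. All 8 tested markers of primed epiblast were lower at d4. Of 10 pluripotency markers, 7 were lower, 1 was higher and 2 did not pass. Among other mesodermal lists, all 10 primitive blood genes were higher at d4, with Itga2b, Hbb-bh1 and Gfi1b at the smallest adjusted p, as were 4 of 7 mural genes, with 1 lower. Cardiomyocyte genes split into 3 higher and 3 lower of 8. These and later list counts stand beside 12.9% of all genes tested that were higher at d4 and 11.3% that were lower. In bulk RNA, fewer cells of a type and less RNA per cell cannot be told apart.

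The promoters of the 3 connexins that passed the test are shown because these genes moved in opposite directions. The windows are the 250 bases before the RefSeq start on GRCm38.p6, read in the direction of the gene, with capitals marking the motifs named below: for Gja4, chr4:127314040-127314289 on the minus strand, for Gjb2, chr14:57104703-57104952 on the minus strand, and for Gja1, chr10:56377050-56377299 on the plus strand.
Gja4: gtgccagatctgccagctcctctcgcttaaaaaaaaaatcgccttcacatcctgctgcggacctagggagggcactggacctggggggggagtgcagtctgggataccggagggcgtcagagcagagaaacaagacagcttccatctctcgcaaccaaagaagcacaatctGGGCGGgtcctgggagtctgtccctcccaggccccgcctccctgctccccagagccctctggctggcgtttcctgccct
Gjb2: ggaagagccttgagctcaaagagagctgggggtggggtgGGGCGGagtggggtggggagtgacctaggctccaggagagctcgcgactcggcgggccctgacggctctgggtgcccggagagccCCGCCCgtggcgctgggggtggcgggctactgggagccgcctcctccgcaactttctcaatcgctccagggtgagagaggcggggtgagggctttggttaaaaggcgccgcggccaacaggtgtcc
Gja1: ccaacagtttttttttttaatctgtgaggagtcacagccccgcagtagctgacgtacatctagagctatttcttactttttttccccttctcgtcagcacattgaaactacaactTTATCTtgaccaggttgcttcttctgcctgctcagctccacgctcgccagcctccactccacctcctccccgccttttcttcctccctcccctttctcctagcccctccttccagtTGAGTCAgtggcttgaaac
The Gjb2 window had a GC content of 69.2% and 18 CpG dinucleotides, the Gja4 window 61.2% and 9, and the Gja1 window 50.0% and 6. The medians over 32851 such windows were 52.4% and 6.

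The letter strings of 8 motifs were searched on both strands, each standing for a common form of a factor's site. A GC box (GGGCGG), the site of SP factors, lay 79 bases before the start of Gja4, and 2 GC boxes lay 211 and 126 bases before that of Gjb2, the nearer one on the opposite strand. The Gja1 window held a GATA site (AGATAA) 135 bases before the start, on the opposite strand, and an AP-1 site (TGANTCA) 19 bases before it. Of all windows, 32.7% held a GC box, 9.99% the GATA site and 6.75% the AP-1 site. The letters of the TATA box (TATAAA, in 12.4% of all windows), the ETS site (CCGGAA, 12.0%), the RBPJ site (GTGGGAA, 5.42%), the SOX site (ACAATG, 10.7%) and the T-box site (AGGTGTGA, 1.12%) were in none of the 3 windows. In the same stretch of the other 2 members with a window, Gja5 held 1 GC box, 17 bases before its start, and Gjb5 a TATA box string 243 bases before its start. No strings in the 3 printed windows overlapped. The searches describe these windows and no more.

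Gja1, a connexin of the stem cell state, was the member that fell. It had 1975 and 3293 counts in the d4 libraries, or 167 and 194 CPM, against 6017 and 9272 counts in the d2 libraries, or 492 and 704 CPM. Both d4 libraries lay below both d2 libraries, and the d2 libraries were further apart than the d4 libraries. The mean was 180.4 ± 18.8 CPM at d4 and 598 ± 150 CPM at d2 (SD, n = 2 each). The log2 fold change was -1.73 ± 0.24 (SE), with an adjusted p of 0.00156 in edgeR. Without d2 replicate 1 or d2 replicate 2 the edgeR adjusted p was 0.0250 and 0.0324, with log2 fold changes of -1.97 and -1.50, while DESeq2 called the gene without either.

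Most genes that mark the starting cells were lower at d4, as was Gja1. The summed level of the 8 primed epiblast markers, which include Fgf5, Pou3f1 and Epcam, was 258 and 228 CPM at d4 against 5827 and 5091 CPM at d2, with a median log2 fold change of -6.22, or -6.02 with Foxd3, at 0 in both d4 libraries, set to its bound. The 10 pluripotency markers summed to 196 and 198 CPM at d4 and to 1402 and 1081 CPM at d2. Most of the d4 sum came from Tbx3, the one that was higher, which averaged 161 CPM at d4 and 0.275 CPM at d2 and also belongs to the list of connexin regulators. Pou5f1, a core factor of pluripotency, had 52 and 65 counts at d4 against 12224 and 9501 at d2, and Dppa5a had 26 and 47 against 1760 and 1726. Utf1, named after its values were seen, was at 0 in both d4 libraries. The log2 fold change of Gja1, -1.73, stood beside medians of -6.22 and -4.43 for these lists and of -0.03 for all genes tested. The part of these cells in the level of Gja1 was not tested.

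Gja4, which couples arterial endothelial cells and, in mouse, the oocyte to its follicle cells, had the largest fold change of the 5 members tested. Its counting interval, given below, overlapped that of Gjb2, 12.6 to 185, so the order of these folds is not settled. Gja4 had 237 and 249 counts in the d4 libraries, or 20.1 and 14.7 CPM. The d2 libraries had 1 and 4 counts, or 0.0818 and 0.304 CPM. The groups did not overlap, and d2 replicate 1 was at the level of a single read. The log2 fold change was 6.40 ± 0.49 (SE, adjusted p = 1.54e-04 in edgeR). Summed over the libraries of a day, the ratio of normalized counts was 85.7, with an exact 95% binomial interval of 36.5 to 265. Its size moved with the d2 libraries: the log2 fold change was 5.78 without d2 replicate 1 and 7.51 without d2 replicate 2, where edgeR gave an adjusted p of 0.0194 and 0.0185 and DESeq2 called the gene both times.

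Within d4, Gja4 was 0.730 times as high in replicate 2 as in replicate 1. The 15 endothelial markers summed to 1485 CPM in d4 replicate 1 and 1155 CPM in d4 replicate 2, against 46.6 and 37.6 CPM in the d2 libraries. Both were lower in d4 replicate 2, as were the sums of the primitive blood (520 and 359 CPM in d4 replicates 1 and 2), venous (507 and 402), endoderm (389 and 317) and mural (697 and 592) lists. The arterial (836 and 824 CPM) and trophoblast (1196 and 1145 CPM) sums differed less between the d4 replicates. Notch3 was the largest part of the mural sum, at 336 ± 85.5 CPM at d4 (SD), with 4684 and 4683 counts. Kdr, the main VEGF receptor, Cdh5, which encodes VE-cadherin, and the ETS factor Fli1 had the smallest adjusted p of the endothelial list. Kdr had 7105 and 7864 counts at d4 against 8 and 9 at d2, Cdh5 had 1607 and 1523 against 1 and 1, and Fli1 had 920 and 1563 against 1 and 0 (adjusted p = 3.96e-05, 4.14e-05 and 4.51e-05 in edgeR). Emcn, a marker of venous and capillary endothelium, had 2 and 3 counts at d4 and 0 in both d2 libraries. The share of endothelial cells in the level of Gja4 was not tested.

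Gja5, the partner of Gja4 in arteries and the connexin of atrial and conduction muscle, had counts at the floor of detection. It had 1 and 2 counts in the d4 libraries against 1 and 3 in the d2 libraries, which is 0.0846 and 0.118 CPM at d4 and 0.0818 and 0.228 CPM at d2. The days overlapped, the gene did not pass the filter, and no fold is given because all values lay at or under the floor of 3 counts per library. Its transcripts share runs of at least 75 bases, the length of a read, with transcripts of 4 other genes, the longest being 477 bases in common with Zfp697. Reads from such runs have more than 1 place in the transcriptome, and their effect on this count was not tested.

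The genes that mark arteries were not uniformly low beside Gja5. Among the 12 arterial genes, d4 was higher for 7 and lower for 2, and 3 did not pass, with a median log2 fold change of 2.29. The lower ones were Bmx, with 0 and 0 counts at d4 against 16 and 27 at d2, and Jag1, at -1.84 ± 0.305 (SE). Dll4, Notch4 and Notch1 did not pass. The 3 arterial genes with the smallest adjusted p were the chemokine receptor Cxcr4, the VEGF co-receptor Nrp1 and the NOTCH effector Hey2. Cxcr4 also belongs to the endoderm list. Cxcr4 averaged 104 CPM at d4 and 0.786 CPM at d2, Nrp1 222 CPM at d4 and 0.117 CPM at d2, and Hey2 20.8 CPM at d4 and 0.549 CPM at d2. Of 4 venous genes tested, Aplnr, Nrp2 and Flt4 were higher at d4, with log2 fold changes of 9.11 ± 0.37, 4.45 ± 0.26 and 2.62 ± 0.32. Ephb4 had 0.43 ± 0.23 (SE, adjusted p = 0.187 in edgeR). Nr2f2, a factor of venous endothelium, did not pass the filter, with 5 and 2 counts at d4 and 0 in both d2 libraries.

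Gjb2, which in mouse carries glucose across the placental labyrinth and is otherwise known from the inner ear, skin and liver, had 56 and 72 counts in the d4 libraries against 1 and 2 in the d2 libraries. These are 4.74 and 4.24 CPM at d4 and 0.0818 and 0.152 CPM at d2. The days did not overlap, and d4 replicate 2 was 0.894 times as high as d4 replicate 1. With 3 counts in all at d2, the ratio of normalized counts was 37.6 with an exact 95% binomial interval of 12.6 to 185. The test gave an adjusted p of 3.18e-04 in edgeR, and of 0.0230 without either d2 library, where DESeq2 still called the gene.

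Gjb5, a connexin of skin and, in mouse, of the trophoblast, had 95 and 102 counts in the d4 libraries, or 8.04 and 6.00 CPM, against 34 and 33 counts in the d2 libraries, or 2.78 and 2.51 CPM. Both d4 libraries lay above both d2 libraries. The log2 fold change was 1.40 ± 0.31 (SE, adjusted p = 0.0109 in edgeR), so the gene missed the threshold of 0.01 narrowly. It passed in 5 of 15 alternative settings, over which the adjusted p ran between 5.34e-05 and 0.322. DESeq2 on the same genes gave an adjusted p of 0.00725, and limma voom 0.0155. Leaving out 1 library gave 0.00164 to 0.0847 in edgeR and 0.109 to 0.322 in DESeq2, and of these 8 fits only edgeR without d4 replicate 2 passed.

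Of 8 trophoblast markers tested, 7 rose and 1, Krt7, fell. The 10 genes of the list summed to 1196 and 1145 CPM at d4 against 66.0 and 62.9 CPM at d2, most of it from Hand1, Krt8, Krt18 and Eomes, which early mesoderm also expresses. Gata3 had 99 and 156 counts at d4 against 1 and 0 at d2, and Tfap2c had 114 and 186 against 2 and 6. Cdx2 had 106 and 118 counts at d4 against 0 and 2 at d2. Prl3d1, a hormone gene of trophoblast giant cells, was at 0 in all 4 libraries. Elf5, which defines trophoblast stem cells, had 1 count in d4 replicate 1 and 0 in the others. Of 6 endoderm genes tested, all 6 were higher at d4, while 4 others of the list of 10 were under the filter. The 6 include Cxcr4, Gata4 and Gata6, all of which endothelium or heart mesoderm also express. Hhex had 928 and 729 counts at d4 against 20 and 21 at d2, and Cer1 had 59 and 32 against 0 and 2. Sox17, which belongs also to the arterial list, had 96 and 69 counts at d4 and 0 in both d2 libraries. Of the 4 under the filter, Afp had 2 and 0 counts at d4 and Ttr 10 and 7, with 0 in both d2 libraries. Foxa2 had 9 and 12 counts at d4 against 5 and 7 at d2, and Apoa1 had 11 and 2 against 1 and 1. The part of either cell type in the level of Gjb2 and Gjb5 was not tested.

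Gjc1, the first connexin of the mouse heart tube, had 638 and 937 counts in the d4 libraries, or 54.0 and 55.1 CPM, against 382 and 477 counts in the d2 libraries, or 31.2 and 36.2 CPM. Both d4 libraries lay above both d2 libraries, and the d4 libraries were closer to each other than for any other member tested. The log2 fold change was 0.69 ± 0.20 (SE, adjusted p = 0.0335 in edgeR), which did not pass. DESeq2 and limma voom did not call it either, and it passed in 2 of 15 alternative settings, over which the adjusted p ran between 0.00135 and 0.510. Of the mural genes, Rgs5 and Pdgfrb, both of pericytes, were higher at d4. Rgs5 had 1327 and 2949 counts at d4 against 1 and 0 at d2, and the log2 fold change of Pdgfrb was 5.15 ± 0.29 (SE). Of smooth muscle genes, Cnn1 was lower at -2.59 ± 0.27 and was the only mural gene that was lower. Acta2 was higher at 1.90 ± 0.35, Tagln did not pass at 1.55 ± 0.38 (SE), and Myh11 was under the filter. The 9 mural genes summed to 697 and 592 CPM at d4 against 98.8 and 68.7 CPM at d2. The cardiomyocyte genes summed to 38.5 and 32.4 CPM at d4 against 39.2 and 32.9 CPM at d2. Of these, Tnnt2 was higher, with 155 and 219 counts at d4 against 2 and 0 at d2, as was Tnni1, and Myh6 was lower, with log2 fold changes of 4.85 ± 0.40 for Tnni1 and -4.44 ± 0.36 for Myh6 (SE). The part of either cell type in the level of Gjc1 was not tested.

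**Figure D2:**
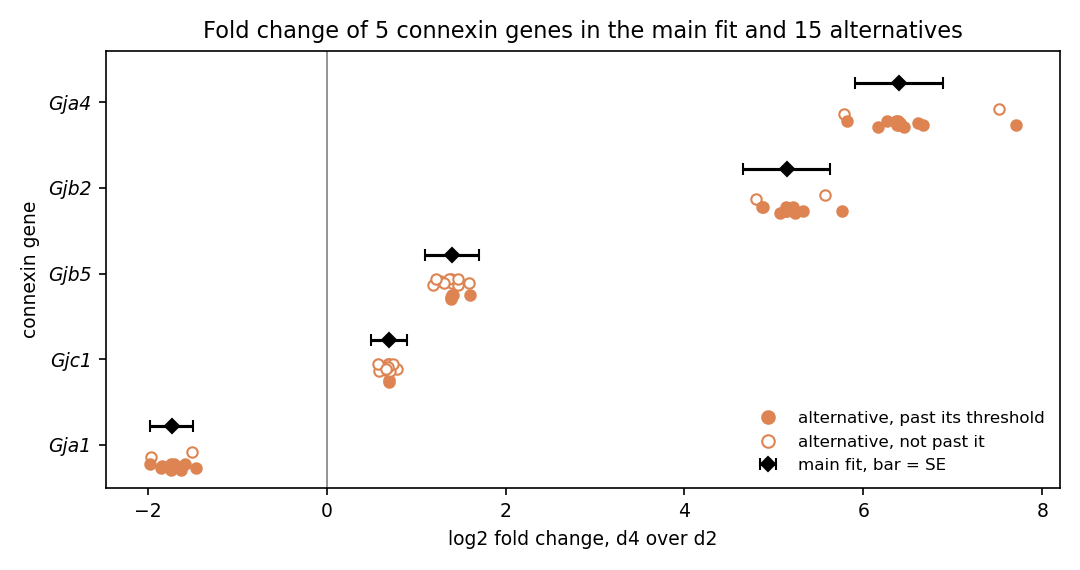
Log2 fold change, d4 over d2, of the 5 connexin genes tested: the black diamond is the edgeR fit with its SE, and each circle below it is 1 of 15 alternative settings, filled where the gene passed that setting's threshold. Every circle of a gene lies on the same side of 0, and open circles for Gja4, Gjb2 and Gja1 are the edgeR fits without a d2 library.

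Levels of different genes were set side by side only per length, as CPM per kb of merged exons. At d4 the order was Gja1 (16.3 and 18.9 CPM per kb), Gjc1 (10.8 and 11.0), Gja4 (11.9 and 8.69), Gjb5 (4.67 and 3.49), Gjb2 (1.97 and 1.76) and Gja5 (0.0147 and 0.0205). Of these neighbours only Gjc1 and Gja4 overlapped. At d2 the order was Gja1 (48.0 and 68.6 CPM per kb), Gjc1 (6.24 and 7.24) and Gjb5 (1.62 and 1.46), followed by Gja4, Gjb2 and Gja5, whose values of 0.0142 to 0.180 overlapped from one gene to the next. Gja1 came first on both days, and Gja4 overlapped Gjc1 at d4 and Gjb2 at d2.

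As a share of the summed level of the 6 genes, Gja1 made up 35.7% and 43.1% at d4 against 85.8% and 88.4% at d2. Gja4 made up 26.1% and 19.8% at d4 against 0.0868% and 0.232% at d2. Gjc1 held 23.6% and 25.1% at d4 against 11.2% and 9.33% at d2, Gjb5 10.2% and 7.95% against 2.89% and 1.88%, and Gjb2 4.32% and 4.01% against 0.0608% and 0.0813%. A share of a gene can grow because another gene falls. The sum itself was 45.7 and 43.9 CPM per kb at d4 against 55.9 and 77.6 CPM per kb at d2.

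The length chosen for Gja1 moves these shares. Its merged exons span 10257 bases over 8 annotated transcripts, while its longest transcript has 3889 bases. With the longest transcript as the length of every gene, Gja1 held 55.6% and 62.3% at d4 against 92.1% and 93.6% at d2, and Gjc1, at 15.8 and 16.2 CPM per kb, no longer overlapped Gja4 at d4. Within each day the order of the genes was the same under either length. Between the days Gja4 and Gjb5 changed places, with Gja4 above Gjb5 at d4 and below it at d2, without overlap on either day.

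**Figure D3:**
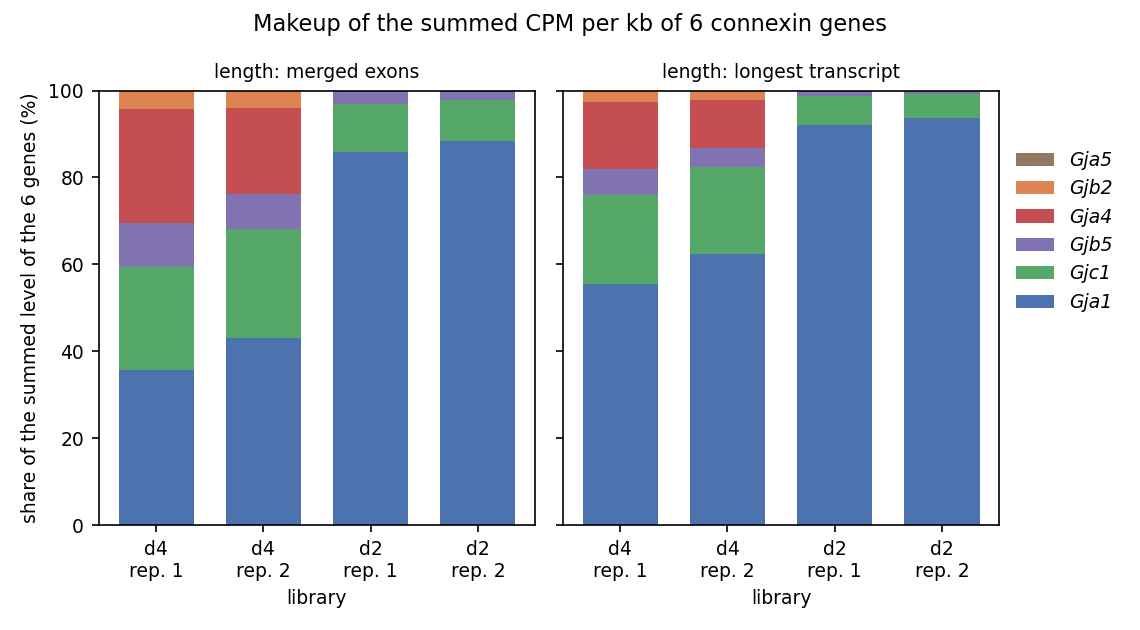
Share of each gene in the summed CPM per kb of the 6 connexin genes, in percent, for each library (d4 left of d2), with merged exons as the gene length on the left and the longest annotated transcript on the right. Gja1 takes 35.7% to 43.1% of the d4 bars and 85.8% to 88.4% of the d2 bars on the left, and Gja5 is too small to be seen.

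Other connexins were read from the same fit. Of 16 connexin genes reported here, the members included, 6 passed the filter, of which 3 rose, 1 fell and 2 missed the threshold. Over all genes tested, 12.9% were higher at d4 and 11.3% lower. The 3 that rose, Gja4, Gjb2 and Gja6, passed the filter only through d4. With 6 connexins tested, these numbers are given as counts only. Beside the members, Gja6 was the one tested. Gja6, an X-linked connexin gene of the mouse, had 161 and 245 counts in the d4 libraries, or 13.6 and 14.4 CPM, against 0 in both d2 libraries. It was at least 59.3-fold higher at d4 against a floor of 3 counts per library (adjusted p = 1.39e-04 in edgeR). Without d2 replicate 1 or 2 the adjusted p of edgeR was 0.0189 and 0.0182, and DESeq2 called the gene without either. No stretch of 30 bases of the Gja6 transcript occurs in a Gja1 transcript or in that of any other gene. Counts per gene do not separate spliced from unspliced RNA, and the part of unspliced RNA of other genes in the Gja6 count was not tested.

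The other 9 connexin genes reported beside the members and Gja6 had at most 10 counts in any library. Gjd2, the main connexin of neurons, had 2 and 0 counts at d4 against 4 and 10 at d2. Gja3 of the lens had 2 and 5 counts at d4 against 4 and 3 at d2, Gjb6 4 and 1 against 2 and 1, and Gja10 3 and 0 against 0 and 1. Gjb1, of liver and Schwann cells, had 1 count in d4 replicate 1, and Gjd4 3 counts in d4 replicate 2, and neither had any at d2. Gjc3, Gjd3 and Gje1 had 0 counts in all 4 libraries. Counts of 0 at these depths allow a level of up to 0.254 CPM in the shallowest library.

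**Figure D4:**
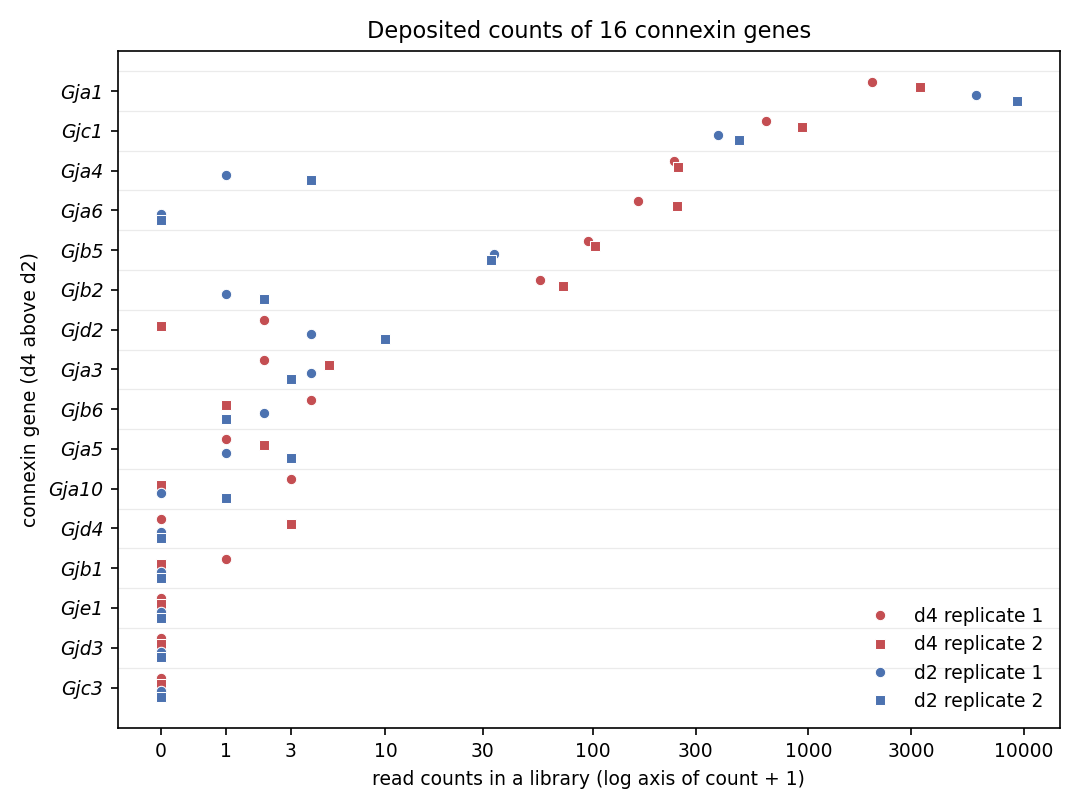
Deposited counts of 16 connexin genes on a log axis of count + 1, with d4 in red above d2 in blue and replicates as circles and squares. Of the 6 genes with more than 10 counts in a library, Gja6, Gja4 and Gjb2 have 4 or fewer counts in each d2 library.

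Some members lie near each other or near relatives. Gja4 (chr4:127311421-127314039, minus strand) and Gjb5 (chr4:127354809-127358181, minus strand) lie 40.8 kb apart. Gja4 was higher at d4 and Gjb5 missed the threshold; the difference between their changes was not tested. Gjb2 (chr14:57098600-57104702, minus strand) lies between Gja3, 40.5 kb away, and Gjb6, 18.6 kb away. Those neighbours had 5 or fewer counts in every library, while Gjb2 had 56 and 72 at d4. Gja1 (chr10:56377330-56402513, plus strand), Gjc1 (chr11:102799579-102819700, minus strand) and Gja5 (chr3:96904693-97077416, plus strand) are each apart from the other members. Coordinates are those of GENCODE vM21 on GRCm38.

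**Figure D5:**
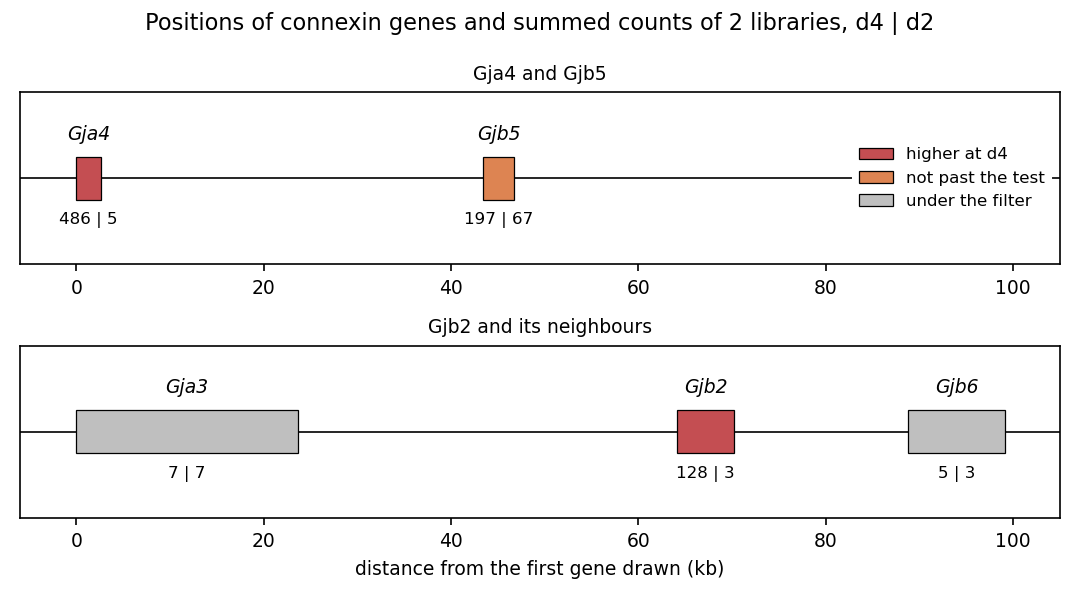
Positions of connexin genes in 2 regions, to scale in kb from the first gene drawn, with other genes left out, boxes coloured by the result of the test and the counts summed over the 2 libraries of a day printed below as d4 | d2. Of the genes drawn, Gja4 (486 counts at d4, 5 at d2) passed the test in the upper region and Gjb2 (128 at d4, 3 at d2) in the lower one.

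Proteins that bind or sort connexins were described by a list of 15 genes. Of 14 tested, 1 rose, 2 fell and 11 missed the threshold, with a median log2 fold change of 0.24 beside -0.03 for all genes. Beside the 12.9% of all genes higher and the 11.3% lower at d4, these counts do not set the list apart. Cdh2, N-cadherin, whose junctions support gap junction assembly, was the one that rose, at 105.5 ± 1.20 CPM at d4 and 32.3 ± 2.59 CPM at d2 (SD, n = 2 each), a log2 fold change of 1.70 ± 0.20 (SE, adjusted p = 7.26e-04 in edgeR). The scaffold gene Tjp3 fell, with 9 and 6 counts at d4 against 157 and 83 at d2 and a log2 fold change of -4.14 ± 0.54 (SE, adjusted p = 0.00122 in edgeR). Ccn3, a secreted protein that binds the tail of Gja1, was the other one lower, with 1 and 0 counts at d4 against 13 and 21 at d2, and is named after its values were seen. Tjp1, which encodes ZO-1, the scaffold that binds the tail of Gja1, had a log2 fold change of 0.01 ± 0.29 (SE, adjusted p = 0.978 in edgeR) and is named for that role. Cav1, a caveolar protein of mature endothelium, had 4 or fewer counts in every library.

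Genes known to regulate connexins in vessels and heart made a list of 21. Of 19 tested, 11 rose, 2 fell and 6 missed the threshold, beside 12.9% of all genes higher and 11.3% lower. The median log2 fold change was 3.87, or 3.72 with the 3 genes at 0 counts at d2 set to their lower bounds. Gata4, a factor of heart mesoderm, averaged 118 ± 19.5 CPM at d4 and 0.318 ± 0.128 CPM at d2. Tbx3 and Tbx2, which repress Gja1 and Gja5 in the conduction system of the heart, were higher at d4 (adjusted p = 3.96e-05 and 7.06e-05 in edgeR). Tbx3 had 1894 and 2745 counts at d4 against 3 and 4 at d2, and Tbx2 had 302 and 479 against 1 and 0. Of genes named after their values were seen, Sox17, an arterial factor, had 96 and 69 counts at d4 against 0 in both d2 libraries. Tbx5 had 15 and 13 counts at d4, also against 0 in both d2 libraries, and was higher. Klf2, which responds to flow in endothelium and belongs also to the pluripotency list, was lower at 3 and 3 counts at d4 against 55 and 49 at d2. Klf4 was higher, with 73 and 93 counts at d4 against 3 and 8 at d2. Nkx2-5, a factor of cardiomyocytes, had 2 and 3 counts at d4 against 1 and 0 at d2. The part of these regulators in the level of any connexin was not tested.

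The genes with the pattern most like each member over the 4 libraries were found by the Euclidean distance of centred log2 CPM among 14923 other genes. For Gja1 the nearest was G3bp2, at a distance of 0.07, with 397 CPM at d4 and 1311 CPM at d2. BC051226 and Hfe2, both at or under 2.35 CPM on either day, followed at 0.09 and 0.13. For Gja4 the nearest were Mmrn2, an endothelial matrix protein, Plac1, of trophoblast, and Twist2, a mesenchymal factor, at 0.40, 0.41 and 0.46. For Gjb2 they were Peg10, Eomes and Efna1 at 0.09, 0.13 and 0.14, for Gjb5 Tlnrd1, Gm37090 and Slc43a1 at 0.05, 0.06 and 0.06, and for Gjc1 Akr1e1, Tmem106a and Tmem167b at 0.05, 0.06 and 0.06. The prior count of 2 in these log2 CPM values shrinks the change of genes with few counts, such as Gja4 and Gjb2 at d2. The fitted log2 fold changes of Peg10, Eomes and Efna1 were 4.17, 4.23 and 4.28, against 5.14 for Gjb2. With 4 libraries the distances are a description, and no p is given for them.

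For Gja4, Gjb2 and Gjb5, no run of 30 bases of the annotated transcript occurs in a transcript of another gene. The longest such run was 51 bases for Gjc1, shorter than a read, and 82 bases for Gja1, in common with Dcaf1. In all, 3 genes share a run of at least 75 bases with Gja1.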

How the data were processed

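Total RNA of E14-Tg2a mESCs was sequenced by the authors at d2 and d4, with 2 strand-specific libraries per day, in paired-end reads of 75 bases. Per the labels and the paper's methods, reads were checked with FastQC, trimmed with cutadapt, aligned to mm10/GRCm38 with STAR and counted per gene with featureCounts, leaving out reads with several places. The methods name the annotation both as GENCODE M10 and as an Ensembl release. The deposited values are raw counts per gene, neither filtered nor normalized. The labels name a forward-strand table, whereas the table analysed is named for the reverse strand. No column was left unmapped.

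Symbols, positions and lengths came from GENCODE vM21 (GRCm38), which held 55227 of the 55487 gene IDs, and promoters from the RefSeq table of GRCm38.p6, which held 5 of the 6 members. Proteins were not used here. The filter kept a gene whose counts, summed over the libraries of d4 or of d2, exceeded 0.5 CPM in a one-sided test of proportions (adjusted p under 0.05). The fit used R 4.3.3 and edgeR 4.0.16 with TMM factors (0.940 to 1.04), glmQLFit and glmQLFTest, and day as the only term. It was tested on simulated counts. Log2 CPM values used a prior count of 2, and SE values came from the coefficient and its F statistic. Exact 95% binomial intervals came from the counts of the 2 days. A permutation test of 2 against 2 libraries cannot go below 0.333, so none was used.

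The members and the lists were chosen with earlier results of these data known, so list counts are descriptions. The lists were connexins, pannexins, connexin partners, connexin regulators and markers of endothelium, arteries, veins, mural cells, cardiomyocytes, primitive blood, pluripotency, primed epiblast, trophoblast, endoderm and neuroectoderm. The text names the 6 members, other connexins and pannexins, the 3 genes of each list with the smallest adjusted p (all where a list has 5 or fewer), and the 3 genes nearest to each member, where a result turns on them. Some genes are not reported here and were left out of the lists and their counts. Other names were chosen for a role or a position, or after their values were seen. The alternatives were DESeq2 size factors, no filter, filterByExpr, DESeq2 1.42.0, limma voom (limma 3.58.1), an adjusted p under 0.05, the replicate number as a block, each library left out with edgeR and with DESeq2, and the longest transcript as gene length.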

Additional observations from a re-analysis of the deposited data

How the results depend on the processing

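Gja1, Gja4, Gjb2 and Gja6 kept their direction in all 15 alternatives and their call in 13 of them. The 2 exceptions for each were the edgeR fits without d2 replicate 1 or without d2 replicate 2, in which edgeR called 0 of all genes in either direction, with lowest adjusted p values of 0.0189 and 0.018 and 6257 and 5973 genes at an unadjusted p under 0.05. In both, DESeq2 called these 4 genes, and over all genes it called 1032 higher and 726 lower without d2 replicate 1, and 967 higher and 717 lower without d2 replicate 2. Gjb5 kept its direction in 15 of 15 and passed in 5, and Gjc1 kept its direction in 15 and passed in 2. With 4 libraries, leaving out one leaves a day with a lone library that is assumed to vary like the other day.

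Of the 6 connexins, 4 were higher at an adjusted p under 0.05 and 4 with the replicate number as a block. Leaving out each library gave 0 to 3 higher and 0 to 1 lower, over all genes 0 to 2264 higher and 0 to 2458 lower, and in the other lists 0 to 61 higher and 0 to 31 lower, beside 57 and 30 of 129 genes with all libraries. Over all genes, 2901 were higher and 2873 lower without the filter, 2991 and 2679 at an adjusted p under 0.05, and 3478 and 3496 with the replicate block, beside 1933 and 1694. The replicate block gave adjusted p values of 5.34e-05 for Gjb5 and 0.00135 for Gjc1. The differences between replicates 2 and 1 correlated at 0.482 across genes between the days. With 2 pairs and no label that ties the numbers to an experiment, the libraries share only a number. With the longest transcript as gene length, the share of Gja1 averaged 58.9% at d4 and 92.8% at d2, beside 39.4% and 87.1% with merged exons, by the construction of that length.

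Depth limits Gja4, Gjb2 and Gja5 most: at d2 they had 5, 3 and 4 counts in all. The folds of Gja4 and Gjb2 are thus known only within their counting intervals. A change of Gja5 by several-fold in either direction was not detectable at this depth. Counts per gene do not separate transcripts, and 2 libraries per day leave the spread within a day to be borrowed across genes.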

Other observations

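The pannexins form a separate family of channels that release ATP and rarely dock between cells. Panx1 had 253 and 299 counts in the d4 libraries against 255 and 287 in the d2 libraries, and the days overlapped (log2 fold change -0.13 ± 0.22, SE, adjusted p = 0.677 in edgeR). Panx2 had 1 and 2 counts at d4 against 11 and 7 at d2 and did not pass the filter, and Panx3 had 0 in all 4 libraries.

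Some of the nearest coding genes of the members are named by position. Adam11, 19.3 kb from Gjc1, was lower at d4, with 5 and 16 counts at d4 against 86 and 67 at d2, and Pdzk1, 33.8 kb from Gja5, was lower with 2 and 2 counts at d4 against 87 and 79 at d2. Tbc1d32, 149 kb from Gja1, had a log2 fold change of -0.38 ± 0.49 (SE, adjusted p = 0.571 in edgeR). Of 5 neuroectoderm genes tested, all 5 were lower at d4, among them Tubb3, Sox3 and Pax6, and the list summed to 70.8 and 60.8 CPM at d4 against 219 and 184 CPM at d2. Gjd2, the connexin of neurons, had at most 10 counts in any library.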
